A study of Homo sapiens with 10 samples.

Results

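The genes described here encode 47 transporters, endocytic receptors and their partners that are known from the proximal tubule (PT) of the kidney. They were listed by gene symbol, with no threshold on a measured value, and all 47 were found among the 61587 genes of the count table. Of these, 36 had at least 200 counts over the 10 samples together, the minimum for a test, and 11 fell short of it. The cells were RPTEC/TERT1, a line of human renal proximal tubular epithelial cells (RPTECs) immortalised by telomerase (hTERT), so that every sample came from 1 line. The irradiated group received 10 Gy of gamma radiation and the control group was mock irradiated, with 5 samples in each, and RNA for poly(A)-selected RNA-seq was taken on day 7. The study irradiated these cells to induce senescence. Replicate numbers 1 to 5 join an irradiated with a control sample, and were used as pairs. The sources do not say whether replicates were separate cultures, so p-values measure the spread between these samples, which may be technical.

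PT cells take back most of what the glomerulus filters. Apical sodium-coupled carriers draw in glucose, amino acids and phosphate, powered by the basolateral sodium pump, while the receptors megalin and cubilin take up filtered proteins. Organic anion and cation carriers and ATP-driven pumps move drugs and metabolites across the same cell, mostly towards the urine. In culture, PT cells are known to lose part of this equipment.

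Of the 36 genes tested, 24 differed between irradiated and control RPTECs, 12 higher and 12 lower. That is 66.7% of them, and among all 19006 genes tested 46.6% differed (23.9% higher and 22.7% lower). Counts for smaller sets of genes below stand against these shares. The median log2 fold change was -0.08 over the 36 genes and -0.01 over all genes tested, with 17 of the 36 above 0 and 19 below. Changes past 2-fold were few. The urate and organic anion carrier SLC17A3, the peptide carrier SLC15A1 and the organic cation carrier SLC22A2 rose by more than 2-fold. So did 5.26% of all genes tested. The peptide carrier SLC15A2 fell by more than 2-fold, as did 4.06% of all genes. SLC22A2 reached the minimum for the test only through its irradiated samples. All 5 irradiated samples lay above all 5 controls for 8 of the 36 genes and below them for 5, while 26.7% of all genes tested showed such a separation in either direction. These differences are from edgeR's quasi-likelihood test, blocked on replicate number, with Benjamini-Hochberg adjustment over all genes tested. Expression is given as CPM, a gene's share of the reads counted in a sample, scaled by TMM so that most genes stay level between samples, and levels of different genes are compared only as CPM per kb of exon. Values after ± are SDs over the 5 samples of a group, SE is the standard error of a log2 fold change, and log2 fold changes are irradiated over control.

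**Figure D1:**
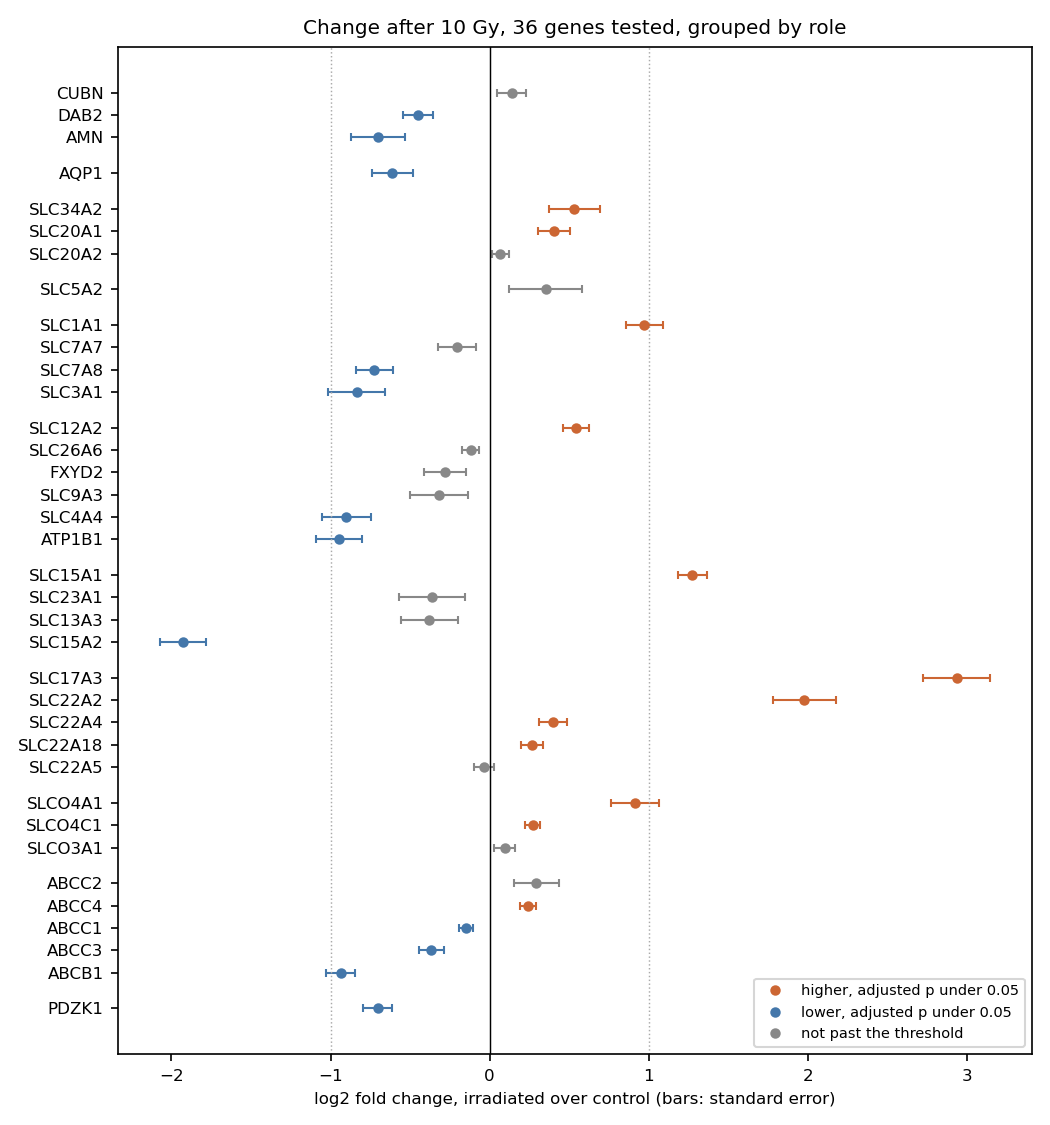
Log2 fold change of irradiated over control RPTECs for the 36 genes with at least 200 counts, in blocks by role, with standard errors as bars; dotted lines mark 2-fold. Orange genes were higher and blue genes lower at an adjusted p under 0.05, 12 of each. SLC17A3 at 2.93 and SLC15A2 at -1.93 stand at the ends.

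Counts on genes summed to between 66269311 and 131555873 per sample. CDKN1A and MDM2, targets of p53 that mark a response to radiation, rose in each of the 5 pairs. The mean of 8 cell cycle genes lay between 2.80 and 3.52 log2 CPM in irradiated samples, at 4.25 and 4.29 in control samples 3 and 1, and between 5.63 and 5.73 in the other 3 controls. Controls 1 and 3 thus stood apart from the other controls, and without pairs 1 and 3 the test called 13 of the 36 genes higher and 11 lower. Of all 17388 genes tested in that run, 3995 were higher and 4185 lower. Genes listed as markers of the PT outside the 47 were mixed. Of these 13 genes, 9 could be tested, of which 1 rose, 2 fell and 6 did not pass. How specific each is to the PT was not tested. PAX8, ANPEP, KRT8 and KRT18 were abundant, each with a mean above 200 CPM in both groups, whereas HNF4A (12 counts over all samples) and FBP1 (2 counts) were nearly absent. Of 16 markers of other nephron segments, 5 could be tested, of which 1 rose, 2 fell and 2 did not pass. PODXL, known from podocytes, rose from a mean of 9.05 to 13.2 CPM, and CLDN16 of the thick ascending limb fell from 375.0 to 280.2 CPM. SLC12A1, the furosemide-sensitive carrier of the thick ascending limb, fell from a mean of 178.3 to 60.9 CPM, and UMOD, which defines that segment, had 0 counts. Of 11 markers of fibroblasts, endothelium and leucocytes, 6 could be tested and 4 rose, 2 of them past 2-fold. The median log2 fold change of the 6 was 0.75. The summed level of the 11 was 17.9 to 25.4 CPM in controls and 33.9 to 46.6 CPM in irradiated samples. Among the 5 that were not tested, COL3A1 (4 counts), LUM (2 counts) and CD3E (3 counts) were close to 0. The 4 that rose are not among these. CD68, another of the 11, shares 85.6% of its exon bases with other genes, so its level is uncertain. The part of these shifts in the changes of the transporter genes was not tested. In bulk RNA, fewer cells with a transcript and less of it per cell cannot be told apart.

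Many carriers that mark the PT in the kidney were absent or close to absent in this line. SLC6A19, the neutral amino acid carrier of the brush border, had 0 counts in all 10 samples, where 3 counts in the total would be 0.00304 CPM. Only 1 count was found for SLC13A1, the sodium-sulphate carrier, and 1 for SLC22A6, the organic anion carrier OAT1. Its relative OAT3, encoded by SLC22A8, had 2 counts, and SLC5A1, the sodium-glucose carrier SGLT1, had 5. A further 6 genes had 17 to 167 counts. They were LRP2, SLC2A2, SLC7A9, SLC34A1, ABCG2 and SLC47A1, and their counts are given with their groups.

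**Figure D2:**
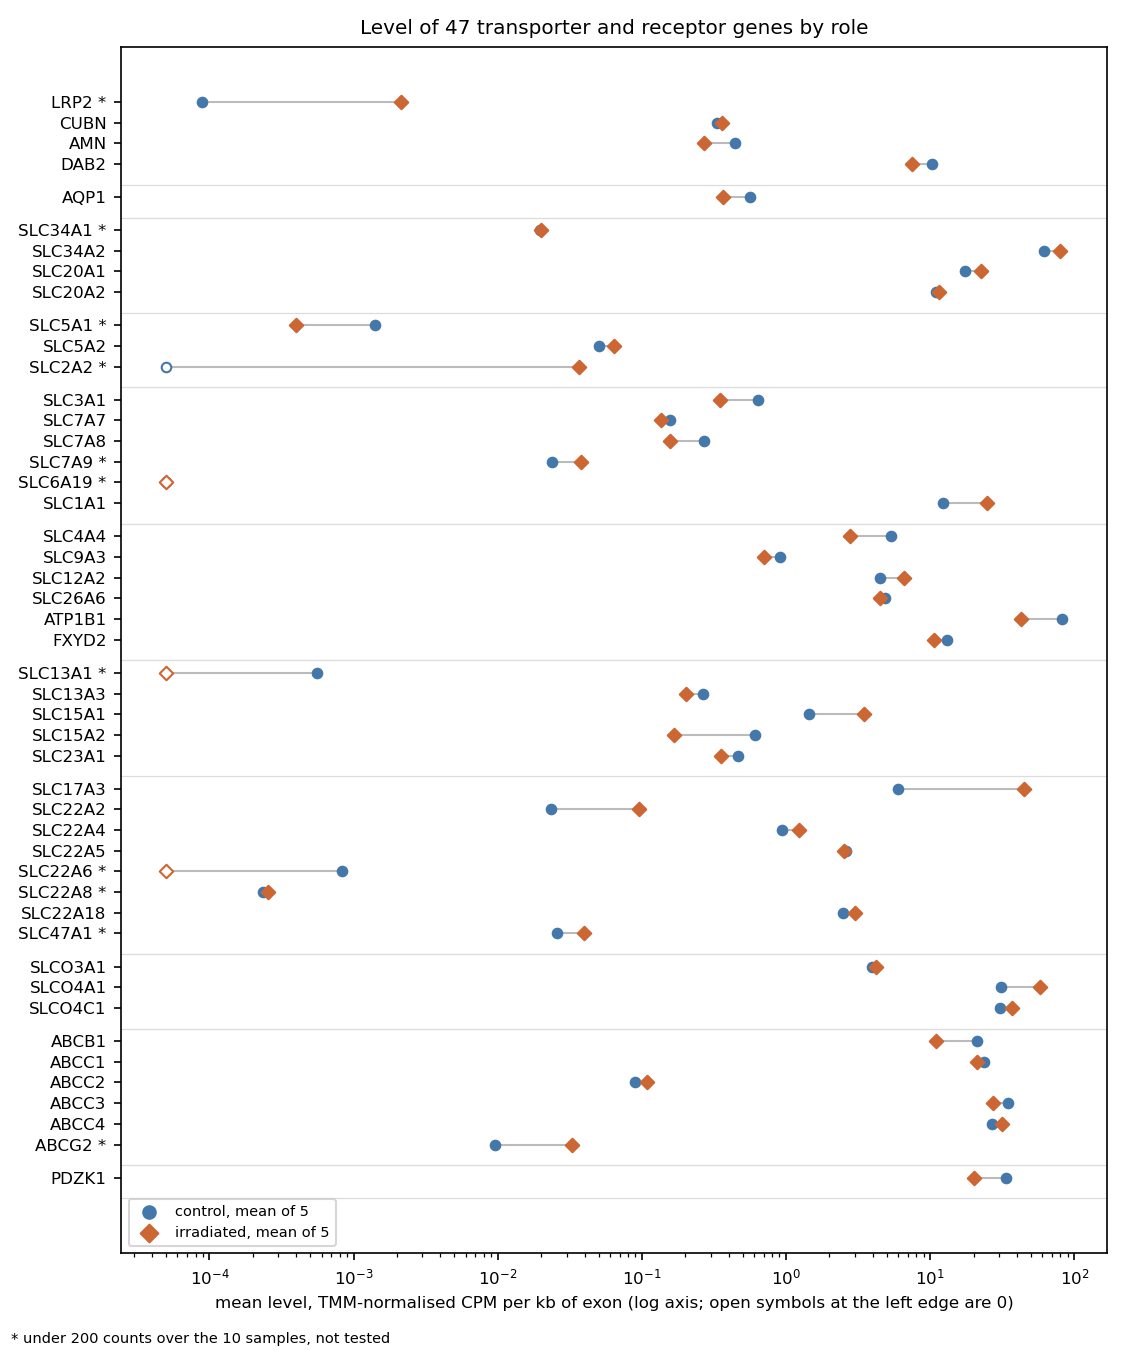
Mean level of each of the 47 genes in control (blue circles) and irradiated (orange diamonds) RPTECs, in CPM per kb of exon on a log axis, in blocks by role; open symbols at the left edge are levels of 0 and asterisks mark the 11 genes not tested. Levels run from ATP1B1 at 82.3 CPM per kb in controls down to SLC6A19 with no count.

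Genes of the endocytic machinery split between a nearly absent receptor and partners that were detected. In controls the partners ran from 0.330 CPM per kb for CUBN to 10.3 CPM per kb for DAB2. LRP2 encodes megalin, the large receptor that binds most filtered proteins. It had 1 count in control 2 and 0 in the other controls, and 4, 0, 5, 3 and 4 counts in irradiated samples 1 to 5. Relative to depth, irradiated samples held 20 times the control level, with an exact 95% interval from 3.11 to 839 that covers counting error only, and its transcript stayed below 0.01 CPM per kb in both groups. At a minimum of 1 count in place of 200, the same test gave LRP2 an adjusted p = 0.0511 and did not call it.

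CUBN, which encodes cubilin, was detected at a low level in every sample, whereas the megalin transcript was nearly absent. Its level in controls 1 to 5 was 5.92, 4.16, 3.24, 4.15 and 4.39 CPM, and in irradiated samples 1 to 5 it was 5.57, 4.91, 4.14, 4.22 and 4.94 CPM. The groups overlapped throughout, and the log2 fold change of 0.14 (SE 0.09, adjusted p = 0.240, edgeR) did not pass. AMN encodes amnionless, the membrane anchor without which cubilin does not reach the surface. It was measured at 2.10, 1.62, 2.47, 1.51 and 1.74 CPM in controls and at 1.30, 1.42, 0.972, 1.17 and 0.927 CPM in irradiated samples. Every irradiated sample lay below every control, and the log2 fold change was -0.70 (SE 0.17, adjusted p = 0.0120, edgeR). Without pair 5 this call was lost, at an adjusted p = 0.0502, and 17.7% of the exon bases of AMN lie under CDC42BPB on the other strand, where reads are dropped by the counting.

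DAB2, the adaptor that couples megalin to clathrin, had the highest level per length of the 4 genes, at 10.3 CPM per kb in controls. Its values were 94.8, 63.2, 100.4, 64.0 and 74.4 CPM in controls and 66.3, 57.1, 55.1, 49.7 and 58.3 CPM in irradiated samples. Controls 1 and 3, those with few cell cycle transcripts, were the highest, and the irradiated samples lay below or within the range of the other controls. DAB2 fell by 0.45 on the log2 scale (SE 0.09, adjusted p = 0.00601, edgeR), lower in all 5 pairs.

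AQP1, the water channel of both membranes of the PT, was low in this line. Control samples had 2.02, 1.93, 2.07, 1.61 and 1.46 CPM and irradiated samples had 1.18, 1.42, 1.04, 1.06 and 1.24 CPM. No irradiated sample reached the lowest control, and the log2 fold change was -0.61 (SE 0.13, adjusted p = 0.00635, edgeR). A gene on the same strand shares 27.9% of the exon bases of AQP1, and reads there could not be assigned.

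PDZK1 is a scaffold that holds apical carriers and channels of the brush border in place. It was abundant, with 108.8, 56.0, 99.2, 68.3 and 82.8 CPM in controls and 56.8, 46.1, 56.4, 43.2 and 47.1 CPM in irradiated samples. All 5 pairs fell, and the groups overlapped only because control 2 lay just under the highest irradiated samples. Its log2 fold change was -0.70 (SE 0.09, adjusted p = 0.000624, edgeR). A copy, PDZK1P1, took 486 counts, against 65960 for PDZK1. NHERF1, a related scaffold not among the 47 genes, moved the other way, from 49.8 ± 2.7 to 74.2 ± 5.5 CPM.

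The phosphate carriers differed from the set that the PT uses in the kidney. SLC34A1 encodes NaPi-IIa, the main phosphate carrier of the PT brush border, and had only 86 counts. It was counted 9, 8, 10, 9 and 11 times in controls and 13, 8, 2, 10 and 6 times in irradiated samples, so that no direction could be seen. SLC34A2 encodes NaPi-IIb, the carrier known from lung and intestine, and was the second most abundant of the 47 genes per kb in controls, at 61.2 CPM per kb, and the most abundant in irradiated samples, at 80.0 CPM per kb.

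The values of SLC34A2 varied widely among controls. They were 388.7, 169.2, 585.6, 171.0 and 229.9 CPM in controls and 448.6, 335.5, 556.6, 343.6 and 333.1 CPM in irradiated samples. Controls 1 and 3 were again the high ones, and pair 3 did not rise. The log2 fold change of 0.53 (SE 0.16, adjusted p = 0.0280, edgeR) rested on the pairing, since without it the adjusted p was 0.385 in the same test. The call was also lost without pair 2, 4 or 5 in turn, at an adjusted p between 0.0722 and 0.0910. SLC20A1, the type III carrier PiT1, rose in all 5 pairs from 95.9 ± 30.4 to 123.5 ± 20.2 CPM (adjusted p = 0.0119, edgeR), a call also lost without the pairing, at an adjusted p = 0.153. SLC20A2, which encodes PiT2, stood at 70.3 ± 8.5 and 73.3 ± 6.4 CPM (adjusted p = 0.349, edgeR), and its direction turned when samples were scaled by library size alone, so no direction is given.

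The 3 glucose carriers among the 47 genes were scarce. SLC5A2, the PT glucose carrier SGLT2, had 253 counts in all and levels of 0.294, 0.265, 0.170, 0.139 and 0.260 CPM in controls and 0.414, 0.194, 0.270, 0.283 and 0.271 CPM in irradiated samples. The groups overlapped and the log2 fold change of 0.35 (SE 0.23, adjusted p = 0.246, edgeR) did not pass, with 40.7% of its exon bases under genes of the other strand.

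SLC2A2, the basolateral glucose carrier GLUT2, was counted in every irradiated sample and in no control. All 5 controls had 0 counts, and irradiated samples 1 to 5 had 24, 1, 13, 9 and 11. Against a floor of 3 counts over the whole control group, 0.00547 CPM, the irradiated level was at least 22.7-fold higher by the mean of samples and at least 24.2-fold higher by pooled counts. The gene had 58 counts and was under the minimum for the test. At a minimum of 1 count in place of 200 it was called higher (adjusted p = 1.82e-05, edgeR). It passed that minimum only through its irradiated samples, so this call is no independent support. The level remained low, with a mean of 0.0364 CPM per kb in irradiated samples.

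Among amino acid carriers, 1 rose and 2 fell. SLC1A1 encodes EAAT3, an apical carrier of glutamate and aspartate, and had the highest level per kb of the group. It was measured at 55.8, 40.5, 45.7, 52.5 and 49.9 CPM in controls and at 110.8, 66.7, 134.4, 92.5 and 85.9 CPM in irradiated samples. The lowest irradiated sample lay above the highest control, and the log2 fold change was 0.97 (SE 0.12, adjusted p = 0.000472, edgeR), just under 2-fold.

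SLC3A1 encodes rBAT, the heavy chain of the cystine carrier, and SLC7A9 its light chain. SLC3A1 fell from 4.15 ± 1.23 to 2.28 ± 0.48 CPM, a log2 fold change of -0.84 (adjusted p = 0.00676, edgeR), although 54.6% of its exon bases are shared with other genes. SLC7A9 had 76 counts, 33 in controls and 43 in irradiated samples, and was not tested. SLC7A8, the light chain LAT2 of the basolateral neutral amino acid exchanger, fell in every pair, by 0.49 to 0.90 on the log2 scale of single pairs, with a fitted log2 fold change of -0.72 (adjusted p = 0.00167, edgeR). Its level differed more between pairs than within them. Controls 1 and 3 had 3.33 and 2.28 CPM and the other controls 0.758 to 0.919 CPM, and without the pairing the adjusted p was 0.259. SLC7A7, the basolateral light chain for cationic amino acids, stood at 0.836 ± 0.154 and 0.723 ± 0.127 CPM (adjusted p = 0.184, edgeR).

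Of the genes for sodium, acid-base and chloride transport, all 6 were tested. ATP1B1, the beta subunit of the sodium pump, was the most abundant of the 47 genes in controls. Its values were 736.3, 1195, 1399, 815.2 and 912.4 CPM in controls and 462.5, 789.1, 444.9, 448.6 and 470.9 CPM in irradiated samples. Only irradiated sample 2 reached into the control range, far from the other 4. The log2 fold change was -0.95 (SE 0.14, adjusted p = 0.00142, edgeR), and the share of ATP1B1 in the summed CPM of the 47 genes went from 31.2% to 17.4%. FXYD2, the gamma subunit of the pump, stood at 73.5 ± 22.0 and 59.1 ± 11.1 CPM (adjusted p = 0.122, edgeR), a result that passed at a minimum of 1 count (adjusted p = 0.0159) or when pair 2 was left out (adjusted p = 0.0376).

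SLC4A4 encodes NBCe1, the basolateral sodium-bicarbonate carrier that returns filtered bicarbonate to the blood. Controls had 46.2, 41.4, 76.3, 37.2 and 47.5 CPM and irradiated samples had 28.3, 26.8, 23.4, 22.5 and 28.4 CPM. Control 3 was far above the other controls, and every irradiated sample lay below the lowest control. This gave a log2 fold change of -0.90 (SE 0.15, adjusted p = 0.00233, edgeR).

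SLC9A3 encodes NHE3, the apical sodium-proton exchanger that works with NBCe1. Its values were 6.81, 5.31, 7.97, 3.26 and 2.80 CPM in controls and 4.36, 6.11, 3.93, 2.96 and 2.84 CPM in irradiated samples. Pairs 1 and 3, with the highest controls, fell, and the other 3 pairs lay within 0.20 of 0 on the log2 scale. The log2 fold change of -0.32 (SE 0.18, adjusted p = 0.181, edgeR) did not pass, was 0.02 without pairs 1 and 3, and rests on a gene that shares 56.8% of its exon bases with others. SLC12A2, the basolateral sodium-potassium-chloride carrier NKCC1, rose from 47.5 ± 6.4 to 69.5 ± 13.0 CPM, with every irradiated sample above every control (log2 fold change 0.54, adjusted p = 0.00117, edgeR). SLC26A6, an apical chloride-oxalate exchanger, stood at 31.0 ± 6.8 and 28.6 ± 6.5 CPM (adjusted p = 0.100, edgeR).

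The peptide carriers moved in opposite directions. SLC15A1 encodes PEPT1 and SLC15A2 encodes PEPT2, which take up di- and tripeptides with protons at the brush border of early and late PT. Promoter sequences, from 250 bases before to 50 after the start of transcription, are shown for both genes as the pair that diverged, 5′ to 3′ on the strand of the gene, from RefSeq on GRCh38.p14. SLC15A1 is read from chr13:98752623-98752922 on the minus strand and SLC15A2 from chr3:121894151-121894450 on the plus strand. Capitals mark TGANTCA, the motif of AP-1, a transcription factor that responds to stress and that the study followed in injured PT cells.
SLC15A1: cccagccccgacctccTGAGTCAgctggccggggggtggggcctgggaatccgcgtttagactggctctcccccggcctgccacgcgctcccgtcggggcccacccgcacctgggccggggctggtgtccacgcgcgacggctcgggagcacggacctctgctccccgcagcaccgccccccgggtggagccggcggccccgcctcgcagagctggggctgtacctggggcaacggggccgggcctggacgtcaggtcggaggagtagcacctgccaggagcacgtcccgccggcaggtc
SLC15A2: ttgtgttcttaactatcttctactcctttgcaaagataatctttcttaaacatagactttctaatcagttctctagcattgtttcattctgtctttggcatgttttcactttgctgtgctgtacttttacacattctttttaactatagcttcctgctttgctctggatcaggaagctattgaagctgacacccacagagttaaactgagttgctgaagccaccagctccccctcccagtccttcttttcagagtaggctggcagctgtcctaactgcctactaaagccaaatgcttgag
The SLC15A1 window held the AP-1 motif at -234 and was made of 76.3% G and C, whereas the SLC15A2 window had no match and 41.3% G and C. Of 37 promoters found for the 47 genes, 5 held TGANTCA, those of SLC5A2, SLC4A4, SLC15A1, SLC17A3 and ABCB1 (13.5%), against 7.71% of all 35116 promoters. Of these 5 genes, 2 rose, 2 fell and 1 did not pass. A match says only that the letters are present.

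SLC15A1 had 6.03, 6.76, 8.03, 4.30 and 5.09 CPM in controls and 12.3, 14.0, 21.8, 12.3 and 12.8 CPM in irradiated samples. Each irradiated sample was above every control and irradiated sample 3 was far above the rest. SLC15A1 thus rose with a log2 fold change of 1.27 (SE 0.09, adjusted p = 5.66e-05, edgeR). SLC15A2 had 6.02, 4.35, 2.46, 2.45 and 2.96 CPM in controls and 1.45, 1.63, 0.454, 0.675 and 0.758 CPM in irradiated samples. Every irradiated sample lay below every control, and the log2 fold change was -1.93 (SE 0.15, adjusted p = 6.41e-05, edgeR), a fall of 3.80-fold. Per kb of exon, the ratio of SLC15A1 to SLC15A2 was 1.42 to 4.64 in controls and 12.0 to 68.3 in irradiated samples, so that PEPT1 was the more abundant transcript in every sample and more so after irradiation.

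The remaining carriers of this group were low. SLC13A3, the basolateral carrier of dicarboxylates such as succinate, stood at 1.60 ± 0.52 and 1.22 ± 0.35 CPM (adjusted p = 0.118, edgeR). SLC23A1, the ascorbate carrier SVCT1, stood at 1.49 ± 0.43 and 1.13 ± 0.18 CPM (adjusted p = 0.186, edgeR). Each passed when a single pair was left out, SLC13A3 without pair 1 (adjusted p = 0.0364) and SLC23A1 without pair 2 (adjusted p = 0.0426).

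**Figure D3:**
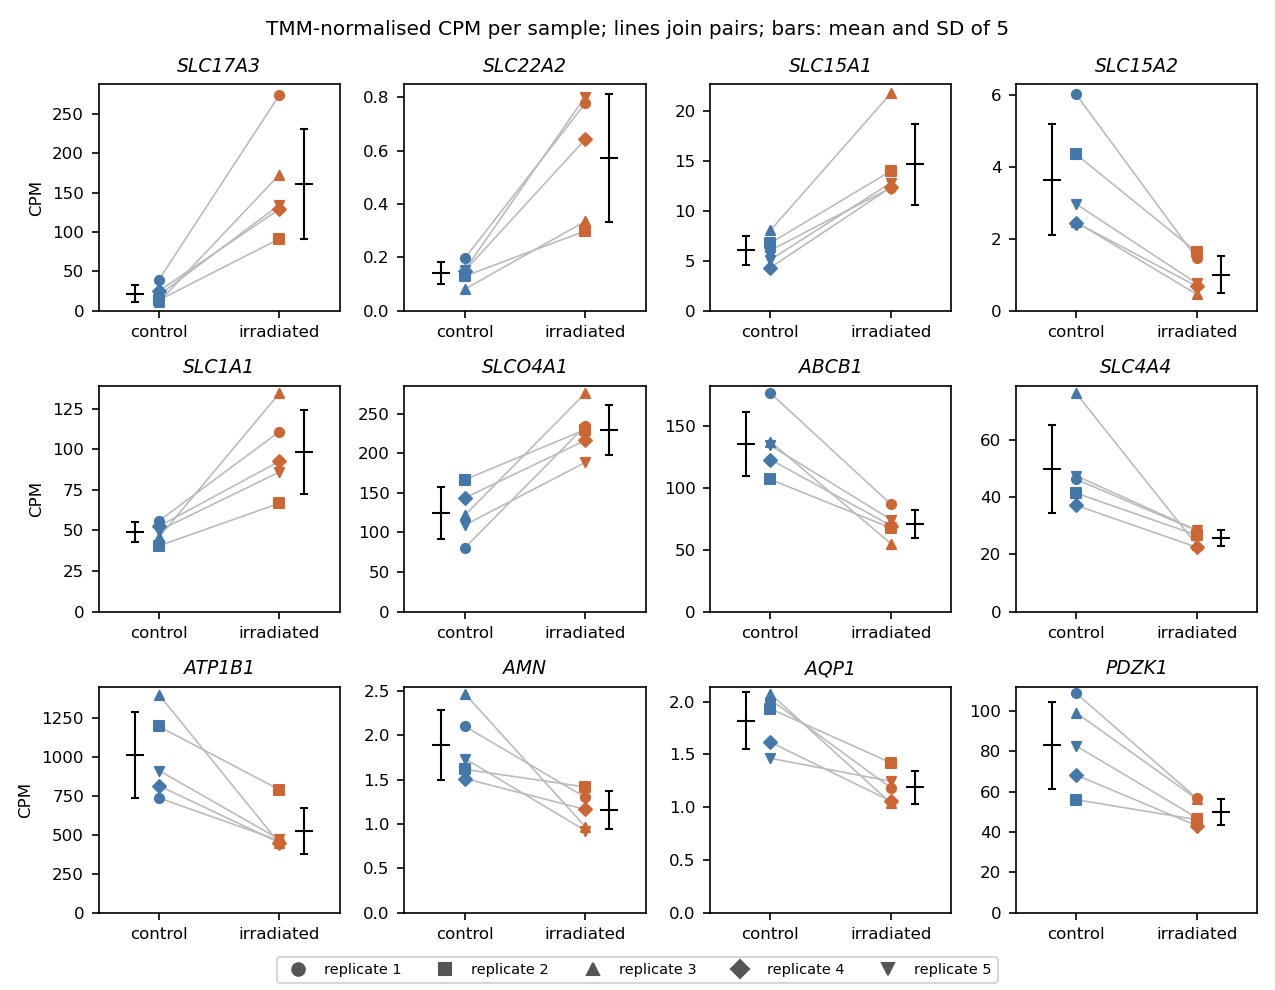
TMM-normalised CPM of 12 genes in every sample, controls in blue and irradiated samples in orange, with a line joining each pair, a symbol for each replicate number, and mean with SD of 5 beside the points; each axis starts at 0. SLC17A3, SLC22A2, SLC15A1, SLC1A1 and SLCO4A1 rise in all 5 pairs and the other 7 genes fall in all 5.

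SLC17A3 had the largest fold change of the 36 genes tested. It encodes NPT4, which carries urate and organic anions across the apical membrane and belongs to a family named for sodium-phosphate transport. Controls had 39.2, 13.3, 10.9, 24.9 and 19.5 CPM and irradiated samples had 274.2, 91.2, 172.9, 129.0 and 134.6 CPM. The lowest irradiated sample was above the highest control by more than 2-fold, and pair 3 rose the most, from the lowest control. The log2 fold change was 2.93 (SE 0.21, adjusted p = 5.56e-05, edgeR), a rise of 7.64-fold. Per kb, SLC17A3 went from 6.0 to 44.6 CPM, which took it from rank 15 to rank 3 among the 47 genes.

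SLC17A3 lies on chromosome 6 from 25833066 to 25882286 of GRCh38, in a row of related genes. SLC17A1, the next gene on the same strand and also a urate carrier, stood at 18.9 ± 10.5 CPM in controls and 69.5 ± 21.1 CPM after irradiation. Its log2 fold change was 1.98 (adjusted p = 7.62e-05, edgeR). SLC17A4, on its far side, stood at 2.80 ± 1.53 and 3.10 ± 0.48 CPM (adjusted p = 0.324, edgeR). SLC17A2, chosen for mention after its values were seen, was under the minimum with 117 counts, at means of 0.0476 CPM in controls and 0.207 CPM in irradiated samples. TRIM38, a ubiquitin ligase gene beside the row, rose by 0.19 on the log2 scale (adjusted p = 0.0173, edgeR).

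The promoter of SLC17A3 is shown because it was the only one of the 37 with matches to the motifs of AP-1 and HNF4 together. HNF4 is a transcription factor that maintains PT identity. The window is chr6:25874194-25874493 on the minus strand, from RefSeq on GRCh38.p14, and its start lies 8043 bases inside the outermost start of the gene in GENCODE. Capitals mark, in order, TGANTCA for AP-1 at -81 and CAAAGTCCA for HNF4 just after the start with at most 1 mismatch, both searched on both strands.
SLC17A3: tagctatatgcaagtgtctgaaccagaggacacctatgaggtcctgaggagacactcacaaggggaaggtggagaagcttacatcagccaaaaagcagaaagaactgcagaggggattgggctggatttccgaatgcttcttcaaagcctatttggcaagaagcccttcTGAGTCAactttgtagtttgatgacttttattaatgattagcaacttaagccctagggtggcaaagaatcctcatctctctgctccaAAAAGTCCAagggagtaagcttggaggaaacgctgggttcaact
An HNF4 match was found in 10 of the 37 promoters (27.0%), LRP2, CUBN, SLC34A1 and PDZK1 among them, and in 6.97% of all promoters. Levels of the genes with an HNF4 match ran from LRP2, SLC5A1 and SLC13A1, close to absent, to PDZK1, and HNF4A itself had 12 counts. What these motifs do in these cells was not measured.

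SLC22A2 encodes OCT2, the basolateral organic cation carrier through which PT cells take up metformin and cisplatin. It had 76 counts in controls and 258 in irradiated samples, and only the latter brought it over the minimum for the test, so its call is no independent support. Its levels were 0.196, 0.129, 0.0798, 0.149 and 0.151 CPM in controls and 0.777, 0.299, 0.335, 0.642 and 0.803 CPM in irradiated samples. The groups did not overlap, with irradiated samples 2 and 3 the lowest of their group. Its log2 fold change came to 1.98 (SE 0.20, adjusted p = 0.000210, edgeR), and the level stayed under 0.1 CPM per kb in both groups. Its promoter, at chr6:160258772-160259071 on the minus strand (RefSeq, GRCh38.p14), starts 18817 bases inside the outermost GENCODE start and held no match to the AP-1 or HNF4 motif, so the sequence carries no capitals.
SLC22A2: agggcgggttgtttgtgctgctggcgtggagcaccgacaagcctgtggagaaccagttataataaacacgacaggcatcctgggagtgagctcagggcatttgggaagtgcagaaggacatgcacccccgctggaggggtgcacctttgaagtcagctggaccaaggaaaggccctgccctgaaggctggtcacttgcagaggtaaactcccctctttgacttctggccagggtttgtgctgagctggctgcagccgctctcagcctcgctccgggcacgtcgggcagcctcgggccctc
A gene beside SLC22A2 encodes another cation carrier of the family. This was SLC22A3, which encodes OCT3 and rose from 23.4 ± 3.7 to 52.9 ± 16.9 CPM, a log2 fold change of 1.13 (adjusted p = 0.000134, edgeR). Both SLC22A2 and SLC22A3 rose in each of the 5 pairs.

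**Figure D4:**
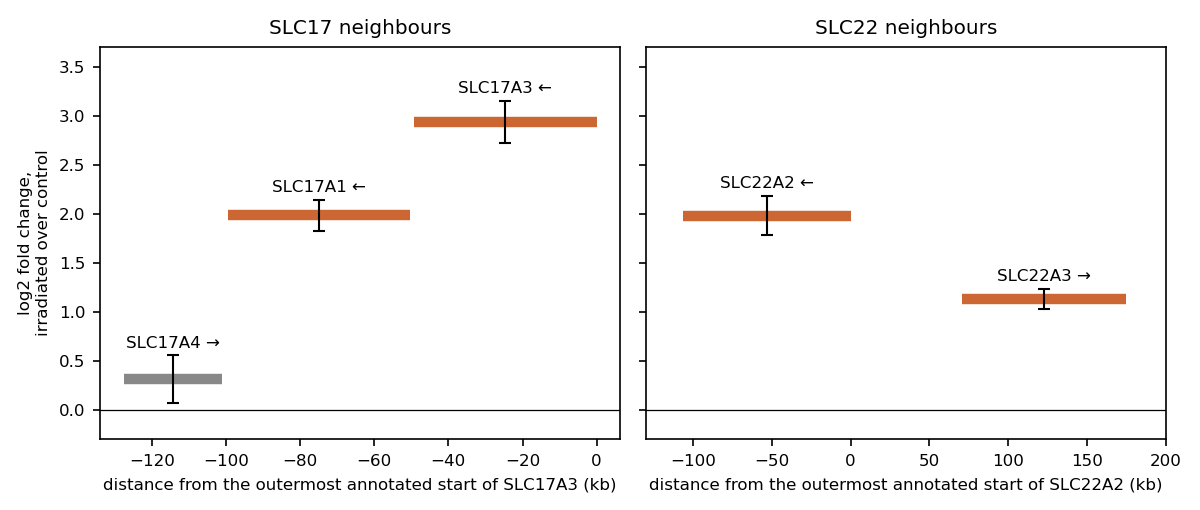
Log2 fold change (black bars: standard error) of the genes beside SLC17A3 and SLC22A2, each drawn as a bar over its extent in kb from the outermost annotated start of SLC17A3 or SLC22A2; arrows give the direction of transcription, and orange bars passed an adjusted p of 0.05. SLC17A1 and SLC17A3 rose and SLC17A4, in grey, did not pass, while both cation carrier genes rose.

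A further neighbouring pair is SLC22A4 and SLC22A5, the ergothioneine carrier OCTN1 and the carnitine carrier OCTN2. SLC22A4 rose from 2.55 ± 0.26 to 3.35 ± 0.29 CPM without overlap of the groups (log2 fold change 0.40, SE 0.09, adjusted p = 0.00806, edgeR). SLC22A5 stood at 47.8 ± 4.3 and 46.5 ± 2.1 CPM (adjusted p = 0.640, edgeR), with a log2 fold change of -0.04 that was 0.03 without pair 3. The ratio of SLC22A4 to SLC22A5 per kb was 0.267 to 0.407 in controls and 0.435 to 0.536 in irradiated samples. Its size rests on exon lengths merged over transcripts, 2721 bases for SLC22A4 and 18390 for SLC22A5. Only its shift between groups is read here, not which gene was the more abundant by how much. SLC22A18, a carrier of organic cations, rose from 13.0 ± 2.1 to 15.6 ± 2.3 CPM (adjusted p = 0.0160, edgeR), a call lost without the pairing (adjusted p = 0.124), without pair 4 (adjusted p = 0.0508) and when samples were scaled by library size alone (adjusted p = 0.0588). SLC47A1, the apical cation extruder MATE1, had 81 counts in controls and 86 in irradiated samples, of which 46 came from 1 sample, and was not tested.

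Of the organic anion transporting polypeptides, 2 of 3 rose. SLCO4A1, a carrier of thyroid hormone and prostaglandins, had 80.3, 166.6, 121.6, 143.5 and 109.2 CPM in controls and 234.4, 229.7, 275.6, 216.2 and 188.4 CPM in irradiated samples. All irradiated samples lay above all controls, and the log2 fold change was 0.91 (SE 0.15, adjusted p = 0.00205, edgeR). Per kb it was the second most abundant of the 47 genes after irradiation, at 57.3 CPM per kb. SLCO4C1, the basolateral carrier of digoxin and uraemic solutes in the PT, rose from 153.9 ± 12.4 to 185.7 ± 16.0 CPM with no overlap (log2 fold change 0.27, adjusted p = 0.00214, edgeR). SLCO3A1, a prostaglandin carrier, stood at 37.3 ± 4.5 and 39.7 ± 3.9 CPM (adjusted p = 0.287, edgeR), and was called higher without pair 3 (adjusted p = 0.0350).

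Of the 6 ATP-driven efflux pumps, ABCC3, ABCC4, ABCC1 and ABCB1 ranked 3, 7, 8 and 9 among the 47 genes per kb in controls, and 3 of the 5 tested fell. ABCB1 encodes P-glycoprotein, the apical drug pump, and had 176.6, 106.8, 137.4, 122.9 and 134.3 CPM in controls and 86.7, 67.6, 54.9, 69.5 and 74.4 CPM in irradiated samples. Every irradiated sample lay below every control, and the log2 fold change was -0.94 (SE 0.09, adjusted p = 0.000166, edgeR). ABCC3 encodes MRP3, a basolateral pump of conjugates, and had the highest level per kb of the pumps. It had 413.5, 361.3, 273.6, 321.4 and 297.4 CPM in controls and 284.5, 352.2, 209.9, 222.4 and 234.3 CPM in irradiated samples. Irradiated samples 1 and 2 lay within the control range, pair 2 fell by only 0.04 on the log2 scale, and the fitted log2 fold change was -0.37 (adjusted p = 0.00605, edgeR). ABCC1, which encodes MRP1, went from 206.2 ± 15.9 to 185.8 ± 4.7 CPM (log2 fold change -0.15, adjusted p = 0.0293, edgeR), and lost the call without pair 1, 3, 4 or 5 in turn, at an adjusted p between 0.0571 and 0.0883.

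ABCC4, the apical pump MRP4 that exports cyclic nucleotides and urate, rose from 231.1 ± 35.6 to 271.5 ± 25.8 CPM, higher in all 5 pairs (log2 fold change 0.24, adjusted p = 0.00737, edgeR). ABCC1, ABCC3 and ABCC4 were not called without the pairing, at an adjusted p of 0.0716, 0.0881 and 0.115. ABCC2, the apical pump MRP2 that is the known PT partner of the organic anion carriers, was scarce at 0.698 ± 0.092 and 0.854 ± 0.099 CPM (adjusted p = 0.126, edgeR). ABCG2, the urate and drug pump BCRP, had 31 counts in controls and 83 in irradiated samples and was under the minimum. Relative to depth this is a ratio of 3.35, with an exact 95% interval from 2.19 to 5.23 for counting error only. At a minimum of 1 count, ABCG2 was called higher (log2 fold change 1.66, adjusted p = 0.00171, edgeR).

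The further genes of the same pathways, 76 other carriers, channels, carbonic anhydrases and endocytic or scaffold proteins, gave 59 that could be tested. Of these, 24 were higher and 15 lower, with a median log2 fold change of 0.16. That is 66.1% of them, where 46.6% of all genes tested differed (23.9% higher and 22.7% lower). The largest rises that passed were those of CA12, SLC17A1 and SLC9A2. CA12, a membrane-bound carbonic anhydrase, rose from 0.411 ± 0.190 to 2.52 ± 0.89 CPM (log2 fold change 2.62, adjusted p = 5.54e-05, edgeR). SLC9A2, the sodium-proton exchanger NHE2, rose from 1.98 ± 0.36 to 7.60 ± 1.30 CPM (log2 fold change 1.94, adjusted p = 0.000143, edgeR). The largest falls were those of SLC38A3, SLC6A20 and CLCN5. SLC38A3, the basolateral glutamine carrier SNAT3, fell from 0.686 ± 0.755 to 0.0899 ± 0.0603 CPM (log2 fold change -2.76, adjusted p = 0.00160, edgeR), with groups that overlapped. It had 339 counts in controls, 195 of them in control 3, and 41 in irradiated samples, so that it reached the minimum only through controls. Without pair 3 it had 174 counts and could not be tested, and the control mean was 0.371 CPM. SLC6A20, the apical carrier of proline, fell from 3.36 ± 1.86 to 0.913 ± 0.380 CPM (log2 fold change -1.82, adjusted p = 0.00106, edgeR). CLCN5, the endosomal chloride-proton exchanger needed for uptake by megalin and cubilin, fell from 93.0 ± 24.5 to 30.0 ± 16.8 CPM (log2 fold change -1.73, adjusted p = 9.56e-05, edgeR). The further genes listed for endocytosis and scaffolds mostly went the other way. Of these 11 genes, all tested, 7 rose, 1 fell by less than 2-fold and 3 did not pass. Their median log2 fold change was 0.24.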

How the data were processed

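After adapter trimming with Trim-Galore, the authors used STAR for alignment to GRCh38 and for counting on GENCODE genes. The release and the strand setting are not given in the sources used here. What was deposited are raw counts for each gene and sample, neither normalised nor filtered. All 17 protein-coding genes wholly under exons of the other strand had 0 counts, against 10.6% of 12742 without such overlap, so reads over overlapping genes are treated as lost and such genes as uncertain.

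Groups and replicate numbers came from the labels. Identifiers were matched to symbols through a gene name table (61415 of 61587), and exon lengths (merged over transcripts), overlaps and coordinates came from GENCODE on GRCh38. Genes with at least 200 counts over 10 samples were tested in R 4.3.3 with edgeR 4.0.16 (TMM, glmQLFit, glmQLFTest). Replicate number was a block, with Benjamini-Hochberg adjustment and a threshold of 0.05. The study itself tested these data with DESeq2, with replicate number in its model and genes under 200 counts removed. "Past 2-fold" is a fitted log2 fold change past 1. Standard errors are the fold change over the root of the F statistic. Replicate numbers were taken as pairs because the study's model includes them. Deviations from group means correlated for every number (0.22 to 0.51), with a median of -0.13 between different numbers. Pair 2, at 0.22, lay under the highest value between different numbers (0.32), so the correlations do not settle the pairing. Replicates of a group differed beyond sampling noise (chi-square per gene 6.83 to 163.1). Intervals of count ratios are exact and cover counting error only. Tests were tested on simulated data.

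The genes, the further list and the markers were chosen with earlier results of these data known. Values per sample are given for genes past 2-fold, for LRP2, CUBN, AMN, AQP1, SLC34A1, SLC9A3 and PDZK1, for the gene with the highest level per kb of each role, and for SLC2A2, added after its values were seen. Of the further list, the 3 largest rises and falls that passed are named. NHERF1, which is on it, and the genes beside SLC17A3 and SLC22A2 were also named after their values were seen. Promoters came from RefSeq (37 of 47 matched; none for SLC20A2, SLC3A1, FXYD2, SLC13A3, SLC22A8, SLC22A18, SLC47A1, SLCO4A1, ABCC1 and ABCC3). Alternatives were no replicate block, each pair left out, DESeq2 1.42.0, the filterByExpr filter, a minimum of 1 count, and scaling by upper quartile or by library size alone. Leaving out pairs 1 and 3 together was added after the data were seen. Results of some genes on these lists are not reported here. Figures used matplotlib 3.10.9.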

Additional observations from a re-analysis of the deposited data

Results flagged for a closer look

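In 4 of 72 sets of 5 values, 1 sample lay far from the other 4, where chance gives about 1 in 20, or 3.6. SLC4A4 was at 76.3 CPM in control 3 and at 37.2 to 47.5 CPM in the other controls. ATP1B1 was at 789.1 CPM in irradiated sample 2 and at 444.9 to 470.9 CPM in the other irradiated samples. SLC15A1 was at 21.8 CPM in irradiated sample 3, against 12.3 to 14.0 CPM. SLC22A5 was at 55.4 CPM in control 3, against 45.2 to 47.5 CPM. Leaving out pair 2 or pair 3 kept the direction and the call of SLC4A4, ATP1B1 and SLC15A1, and turned the direction of SLC22A5, which did not pass in either case, without pair 3.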

How the results depend on the processing

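Of the 36 genes tested, 20 kept their direction and call under every alternative in which they were tested. Among these 20, CUBN, SLC5A2, SLC7A7 and ABCC2 kept a result that never passed. SLC5A2 could be tested in only 9 of the 12 alternatives. Without the replicate block the test called 8 of the genes higher and 9 lower, in place of 12 and 12, and SLC34A2, SLC20A1, SLC7A8, SLC22A18, ABCC1, ABCC3 and ABCC4 lost their calls. In that run, 3640 of all 19006 genes tested were higher and 3366 lower, in place of 4550 and 4307. The further list then gave 17 higher and 11 lower. With single pairs left out, 10 to 13 of the 36 genes were higher and 10 to 14 lower, 3 to 5 rose past 2-fold and 1 to 2 fell past 2-fold, with 5 rises without pair 2 and 2 falls without pair 1 or 2. Over all genes, these runs called 3557 to 4605 higher and 2943 to 4047 lower, of 18198 to 18345 tested. Genes past 2-fold numbered 5 higher with a minimum of 1 count, where SLC2A2 and ABCG2 entered, and 3 lower with library size as the only scaling. That scaling moved the median log2 fold change of all genes by -0.08 and the share of rises among all called genes from 51.4% to 38.0%. The log2 fold change of SLC20A2 became -0.01 with library size only and -0.03 without pairs 1 and 3, that of SLC9A3 became 0.02 without pairs 1 and 3, and that of SLC22A5 became 0.02 without pairs 1 and 3 and ran from -0.06 to 0.03 with single pairs left out. The cause of these changes was not tested. For the 11 genes under 200 counts, depth limits what can be seen.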
